A study of Mus musculus with 6 samples.

Results

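The mitochondrial carriers of the Slc25 family were taken as every row of the count table whose symbol was Slc25a followed by a number, together with Ucp2, which belongs to the same family under another name. This gave 48 of the 41079 genes listed, and all 48 were annotated as protein-coding genes in GENCODE M39 on GRCm39. Slc25 proteins lie mostly in the inner mitochondrial membrane, which is otherwise closed to charged metabolites, and each moves a particular set of nucleotides, phosphate, organic acids, amino acids, cofactors or iron between the cytosol and the matrix. They supply oxidative phosphorylation with ADP and phosphate, link the citric acid cycle to cytosolic fat and amino acid metabolism, and bring iron and glycine to haem and iron-sulfur cluster synthesis. In microglia, the resident macrophages of the brain, the switch between oxidative and glycolytic energy supply goes along with changes of activation state.

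RNA was sequenced from primary microglia of C57Bl/6N mice of postnatal day 1 to 3, which were shaken off mixed glial cultures for 5.5 h after growth in 20% L-929 conditioned medium, a source of the macrophage growth factor M-CSF. The 3 control cultures were kept in serum-free DMEM/F12 medium. The 3 optimized cultures received hTGF-β1, hIL-34 and hCX3CL1 in the same medium, each at 100 ng/mL according to the labels, and the methods add cholesterol, insulin-transferrin-selenium and a collagen IV coating. All groups therefore shared the earlier exposure to L-929 medium, several brains were pooled in a flask, and the components of the optimized condition were not separated from one another. By the methods, cells were shaken off weeks after isolation. All groups also met serum earlier, in the mixed glial cultures and while the cells adhered to the wells before the medium was replaced.

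Total counts were 20628148 to 27261839 per library. The summed level of 10 microglia and macrophage markers was 8311 to 8623 CPM, counts scaled to a common library total, in control and 14265 to 17144 CPM in optimized cultures, and 7 of these markers were higher and 2 lower. Markers of other cell types summed to less. Neuronal markers summed to 3.59 to 5.07 and 6.77 to 7.45 CPM, astrocyte markers to 28.5 to 30.1 and 13.9 to 17.3 CPM, and oligodendrocyte and precursor markers to 171 to 175 and 634 to 782 CPM. Of the last list, Cspg4 alone took 26.9 to 39.5 and 435 to 618 CPM, and the other 7 markers summed to 132 to 148 and 165 to 199.5 CPM. Fibroblast, mural and endothelial markers summed to 33.0 to 46.7 CPM in control and 29.8 to 149 CPM in optimized cultures, with the highest sum in optimized replicate 3. None of these lists had a marker at 0 in all libraries, and their part in the carrier results was not tested. In bulk RNA, fewer cells of a type and less RNA per cell cannot be told apart. Control replicate 1 and optimized replicate 1 also deviated from their groups in favour of long transcripts, with a Spearman correlation of deviation and length across genes of 0.51 and 0.69, against -0.65 to 0.06 in the other libraries. Across genes these correlations are descriptions of single libraries.

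The 250 bases before the annotated start of the canonical transcript are shown for the carrier with the largest rise, Ucp2, and the carriers with the largest falls, Slc25a45 and Slc25a22. They are given 5′ to 3′ on the coding strand of GRCm39, with matches to the 7 motifs searched in capitals, where a match on the other strand reads as its reverse complement. These were the SMAD box CAGAC, the SMAD element GGCGCC, the PU.1 core GAGGAAG, the E-box CACGTG, the ATF4 composite element TGATGNAAN, the palindromic NRF1 site and the GC box GGGCGG, each on both strands.
Ucp2 (chr7:100142277-100142526, plus strand): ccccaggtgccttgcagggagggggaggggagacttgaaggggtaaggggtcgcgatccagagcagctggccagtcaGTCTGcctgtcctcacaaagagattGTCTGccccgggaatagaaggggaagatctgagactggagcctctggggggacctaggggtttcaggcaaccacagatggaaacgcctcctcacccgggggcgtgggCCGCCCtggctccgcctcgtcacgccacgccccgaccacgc
Slc25a45 (chr19:5927531-5927780, plus strand): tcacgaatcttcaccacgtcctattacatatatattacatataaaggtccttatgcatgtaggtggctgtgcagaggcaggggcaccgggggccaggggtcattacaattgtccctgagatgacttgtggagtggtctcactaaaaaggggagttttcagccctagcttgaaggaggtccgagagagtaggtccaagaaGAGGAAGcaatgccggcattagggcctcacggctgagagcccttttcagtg
Slc25a22 (chr7:141017833-141018082, minus strand): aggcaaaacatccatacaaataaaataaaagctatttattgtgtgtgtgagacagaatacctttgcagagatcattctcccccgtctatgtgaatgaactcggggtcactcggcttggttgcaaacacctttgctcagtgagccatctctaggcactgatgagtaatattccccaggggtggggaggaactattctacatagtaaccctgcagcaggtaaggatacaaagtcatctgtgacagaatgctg

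The Ucp2 window held 2 CAGAC boxes and 1 GC box, all on the opposite strand. This window lies within the annotated Ucp2 gene, which begins at base 100142055, ahead of the start of its canonical transcript. The Slc25a45 window held 1 GAGGAAG core, and no motif of the 7 was in the Slc25a22 window. CAGAC is a short word that 41.4% of the 13951 promoters of tested genes and 17 of 40 tested carriers held, and a match is not evidence of binding. GAGGAAG was in 10.9% of all promoters and in 3 carriers (7.5%), and the GC box in 46.6% of all promoters and 50% of the carriers. The E-box, which none of the windows shown held, was in 7.78% of all promoters and in 6 carriers (15%), a difference that was not tested. The GC content of the windows was 65.6% for Ucp2, 50.8% for Slc25a45 and 44.4% for Slc25a22, beside a median of 56.4% for all promoters read.

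Of the 48 carriers, 40 passed the filter on low counts and were compared between the conditions over 14618 genes. Transcripts of 5 carriers were higher in optimized cultures (Ucp2, Slc25a37, Slc25a23, Slc25a33 and Slc25a39) and those of 7 were lower (among them Slc25a45, Slc25a22, Slc25a38, Slc25a10, Slc25a24 and Slc25a12), at an adjusted p under 0.05 in edgeR's quasi-likelihood test. The calls made up 30.0% of the tested carriers, and 29.8% of all genes tested were called. By direction, 12.5% of the carriers were higher beside 14.7% of all genes, and 17.5% were lower beside 15.2%. In this fit the family as a whole was thus called about as often as all genes, and the results below concern its single members. The median log2 fold change was -0.02 over the tested carriers and 0.01 over all genes. When libraries were scaled by their totals alone, the median of all genes shifted to -0.12, and the split of the carriers was 3 higher and 12 lower, beside 10.4% and 21.7% of all genes, or 32% in either direction.

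**Figure D1:**
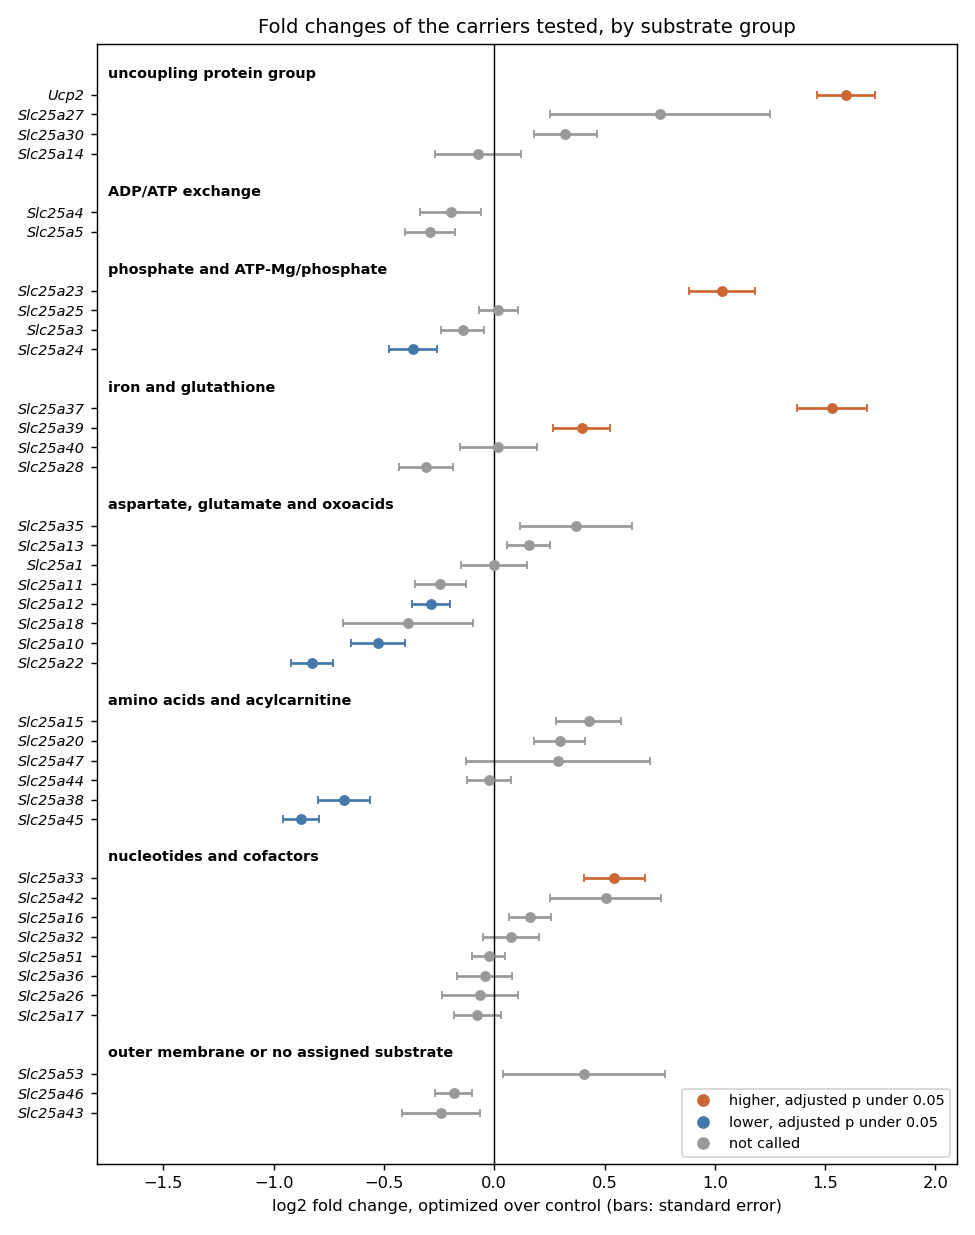
Log2 fold change of the tested carriers described here, optimized over control, with bars of 1 standard error and carriers grouped by what they transport. Orange points were higher and blue points lower at an adjusted p under 0.05. Ucp2 and Slc25a37 stand furthest to the right at 1.59 and 1.53, and Slc25a45 and Slc25a22 furthest to the left at -0.88 and -0.83.

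Ucp2, an uncoupling-type carrier that is abundant in macrophages and is linked to proton leak, export of small dicarboxylates and restraint of superoxide formation, was the carrier with the highest FPKM and the largest fold change in this fit. Its level was 505, 528 and 585 CPM in the control cultures and 1349.8, 1832 and 1704 CPM in the optimized cultures. The groups were far apart, and optimized replicate 1 was the lowest of its group. The log2 fold change was 1.59 ± 0.13 (SE), a 3.02-fold rise with an adjusted p of 1.2e-05 in edgeR's quasi-likelihood test. Ucp2 lies on chromosome 7 at 100142055 to 100151227. It shares 1095 exonic bases with Dnajb13 on the opposite strand, which had a mean of 66.2 counts per library against 24540 for Ucp2 and a log2 fold change of 1.86. The strand setting of the counting is not given in the sources used here, so reads of the shared stretch cannot be assigned to one of them.

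The other carriers of the uncoupling group were at far lower levels and none was called. Slc25a14, a brain carrier of this group, was at 3.37, 3.39 and 3.44 CPM in control and 2.94, 3.87 and 2.85 CPM in optimized cultures, a log2 fold change of -0.07 with a 95% interval of -0.51 to 0.37. Slc25a30, its close relative, was at 14.2, 11.2 and 14.8 CPM against 17.8, 14.3 and 18.2 CPM. It had a log2 fold change of 0.32 (0.00 to 0.64) and an adjusted p of 0.13 in edgeR's quasi-likelihood test. With single libraries left out this p was 0.048 to 0.38, and only the fit without optimized replicate 2 called it. Slc25a27, a neuronal member, was near 1 CPM, and its interval of -0.37 to 1.87 covered both directions.

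In FPKM, the authors' values per transcript length and depth, carriers can be compared with one another. Ucp2 made up 23.0%, 22.9% and 23.6% of the summed carrier FPKM in the control cultures and 48.1%, 51.1% and 50.3% in the optimized cultures. This is 23.2% ± 0.38 (SD, n = 3) against 49.9% ± 1.55 (SD, n = 3), with an exact permutation p of 0.1, the smallest that 3 against 3 allows. Slc25a3, the phosphate carrier, went from 20.9% ± 0.17 to 13.6% ± 0.50, and Slc25a5, the ADP/ATP carrier of dividing and most other cells, from 16.5% ± 0.33 to 9.60% ± 0.17, again with no overlap. These shares sum to 100% in each library, so a rise of one carrier lowers the shares of the rest.

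**Figure D2:**
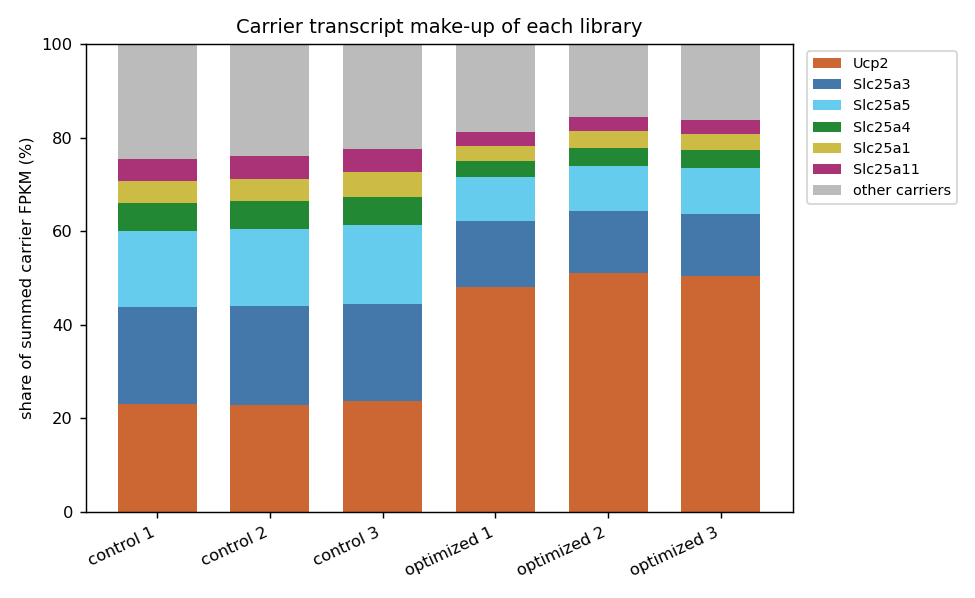
Share of the summed FPKM of all 48 carriers taken by Ucp2, Slc25a3, Slc25a5, Slc25a4, Slc25a1, Slc25a11 and the other carriers together (percent, stacked), in each of the 6 libraries. Ucp2 takes 22.9% to 23.6% of the bar in control and 48.1% to 51.1% in optimized libraries.

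With Ucp2 left out, the share that moved most was that of Slc25a37, the iron carrier described below, at 1.11% ± 0.14 of the carrier FPKM in control and 3.58% ± 1.26 in optimized cultures. Slc25a3 then held 27.3% ± 0.16 of the carrier FPKM in control and 27.0% ± 0.18 in optimized cultures (SD, n = 3), and the groups overlapped. Slc25a5 held 21.4% ± 0.53 and 19.2% ± 0.83, Slc25a39 4.41% ± 0.10 and 6.32% ± 0.55, Slc25a45 4.01% ± 0.34 and 2.40% ± 0.20, and the groups of these 3 did not overlap (exact permutation p of 0.1 each). The summed level of all carriers rose from 2347 ± 120 to 3350 ± 348 CPM (SD, n = 3; 1.43-fold, exact permutation p of 0.1). Without Ucp2 the sum was 1807 ± 78.7 and 1722 ± 98.4 CPM, and the groups overlapped (exact permutation p of 0.5). In FPKM that sum was 831 ± 25.3 and 689 ± 45.2 (0.829-fold), lower in every optimized culture (exact permutation p of 0.1). The CPM sums were TMM-scaled, with factors of 1.00 to 1.07 in control and 0.898 to 1.03 in optimized libraries, but the authors' FPKM values were not. How far the lower FPKM sum depends on this scaling was not tested.

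The carriers of ADP, ATP and phosphate, which feed and empty the ATP synthase, had the highest mean FPKM after Ucp2, and none of the 3 main ones was called. Slc25a5 was at 211, 223 and 248 CPM in control and 157, 204 and 197 CPM in optimized cultures. All optimized values were below all control values, but the log2 fold change of -0.29 (95% interval -0.54 to -0.04) had an adjusted p of 0.085 in edgeR's quasi-likelihood test. That call changed with the processing: it passed under 7 of 16 alternatives. These included scaling by library totals alone and the fits on FPKM, which all lack TMM factors. With single libraries left out the adjusted p was 0.037 to 0.26 in edgeR's quasi-likelihood test, and only the fit without optimized replicate 2 called it. Of its 75-base stretches, 26.0% also occur in transcripts of 7 other genes, so some of its reads may have been assigned elsewhere.

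Slc25a4, the ADP/ATP carrier typical of muscle and brain, was at 80.0, 85.3 and 92.7 CPM in control and 58.2, 86.9 and 79.9 CPM in optimized cultures. The groups overlapped, with a log2 fold change of -0.20 (-0.51 to 0.11). Slc25a3 was at 361, 384 and 406 CPM against 312, 373 and 356 CPM and also overlapped, with a log2 fold change of -0.14 (-0.36 to 0.07). The ratio of Slc25a4 to Slc25a5 within a library was 0.368, 0.372 and 0.364 in control and 0.360, 0.414 and 0.395 in optimized cultures. This ratio does not depend on library scaling, and it did not separate the groups (1.06-fold, exact permutation p of 0.4). Slc25a31, the form found in germ cells, had 0 to 3 counts per library and was not tested.

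The calcium-regulated exchangers of ATP-Mg and phosphate, which set the adenine nucleotide content of the matrix, split. Slc25a23 was at 9.36, 7.22 and 8.35 CPM in control and 18.7, 18.3 and 14.0 CPM in optimized cultures. The lowest optimized value was well above the highest control value, and the log2 fold change was 1.03 ± 0.15 (SE) with an adjusted p of 5.2e-04 in edgeR's quasi-likelihood test. Slc25a24 was at 41.1, 40.3 and 39.1 CPM in control and 35.4, 27.2 and 30.9 CPM in optimized cultures. It fell by 0.37 ± 0.11 on the log2 scale with an adjusted p of 0.028 in edgeR's quasi-likelihood test, a smaller change that lost its call when any library other than optimized replicate 1 was left out (adjusted p of 0.066 to 0.090 in the same test). Slc25a25, a close relative of both, had a log2 fold change of 0.02 (-0.18 to 0.21). The ratio of Slc25a24 to Slc25a25 was 2.88, 3.04 and 2.57 in control and 2.47, 1.86 and 2.15 in optimized cultures, which did not overlap (0.759-fold, exact permutation p of 0.1). Slc25a41 and Slc25a54 had no count in any library. The limit that a count of 0 allows, 3 counts, was 0.110 to 0.145 CPM per library, and it covers counting error only.

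Of the 2 iron carriers, 1 rose and 1 was not called, and their ratio differed between the groups. Slc25a37, mitoferrin of the red cell lineage and of macrophages, brings iron into the matrix for haem and iron-sulfur clusters. Its level was 50.2, 44.7 and 44.4 CPM in control and 171, 107 and 125 CPM in optimized cultures. Every optimized value was more than the highest control value, with optimized replicate 1 at the top. The log2 fold change was 1.53 ± 0.16 (SE), a 2.89-fold rise with an adjusted p of 5.9e-05 in edgeR's quasi-likelihood test, and it ranged from 1.28 to 1.66 over the alternatives, all of them called. Slc25a28, the mitoferrin expressed in most tissues, was at 20.7, 17.3 and 18.5 CPM against 13.2, 16.01 and 16.4 CPM. It was lower in every optimized culture but not called, with a log2 fold change of -0.31 (-0.58 to -0.04) and an adjusted p of 0.087 in edgeR's quasi-likelihood test. The FPKM ratio of Slc25a37 to Slc25a28 was 0.895, 0.951 and 0.887 in control and 4.78, 2.45 and 2.81 in optimized cultures. Slc25a37 was thus about as abundant as Slc25a28 per transcript length in control cultures and several times more abundant in optimized cultures (3.52-fold, exact permutation p of 0.1, 0.13 adjusted over the 8 pairs). On the log2 scale this difference was 1.82, or 1.53 without optimized replicate 1. Both share exonic stretches with genes on the opposite strand. For Slc25a37 these were 1422 bases with Gm63459, which was not analysed here, and 381 bases with Gm31748, which had a mean of 6.17 counts, and for Slc25a28 they were 1135 bases with BC037704, which had 12.8. Of the 75-base stretches of their transcripts, 38.7% and 40.5% occur in other genes, so the levels of both are uncertain to that extent.

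Slc25a39, which carries glutathione into mitochondria, was at 97.9, 107 and 113.5 CPM in control and 114.1, 163 and 142 CPM in optimized cultures. The groups nearly touched, since optimized replicate 1 was barely above control replicate 3. The log2 fold change of 0.40 ± 0.13 (SE) had an adjusted p of 0.042 in edgeR's quasi-likelihood test, and this call was the least stable of the 12: it was lost in 9 of 16 alternatives, among them without any single library other than optimized replicate 1 (adjusted p of 0.068 to 0.16 in the same test). Slc25a40, its paralogue with the same substrate, was at 5.25, 7.10 and 5.60 CPM against 6.91, 6.05 and 5.22 CPM, with a log2 fold change of 0.02 (-0.37 to 0.41). The ratio of Slc25a39 to Slc25a40 overlapped between the groups (1.28-fold, exact permutation p of 0.3). Of the 75-base stretches of Slc25a39, 27.1% also occur in transcripts of 2 other genes, so some of its reads may have been assigned elsewhere.

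**Figure D3:**
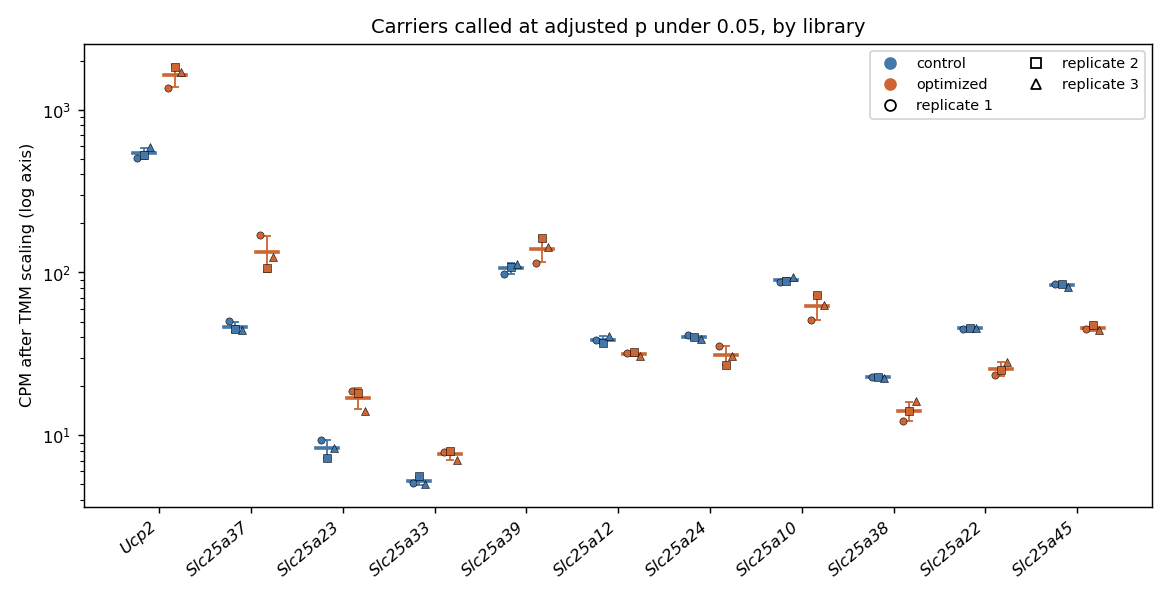
Level in CPM (TMM-scaled, log axis) of the called carriers described here in each of the 3 control (blue) and 3 optimized (orange) libraries, with symbols for the replicate number and bars for mean and SD. Ucp2, Slc25a37 and Slc25a23 are clearly raised, Slc25a45, Slc25a22 and Slc25a38 clearly lowered, and the groups of Slc25a39 nearly touch.

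Carriers of glutamate, aspartate and the organic acids of the citric acid cycle counted 0 higher and 3 lower of 8 tested, beside 14.7% and 15.2% of all genes. Slc25a22, which imports glutamate with a proton, was at 44.8, 45.6 and 45.9 CPM in control and 23.4, 25.2 and 28.2 CPM in optimized cultures. The control values lay within a narrow range and all optimized values were far below it. The log2 fold change was -0.83 ± 0.10 (SE) with an adjusted p of 1.2e-04 in edgeR's quasi-likelihood test, and the call held in all 16 alternatives. Slc25a18, the second glutamate carrier, typical of astrocytes, was near 1 CPM in all libraries, with 0.822 to 1.35 CPM, and was not called (-1.05 to 0.27). It shares 2819 exonic bases with Atp6v1e1 on the opposite strand, which had a mean of 3495 counts against 26.3 for Slc25a18, so its own level is uncertain.

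Slc25a10, which exchanges malate and succinate for phosphate, was at 86.9, 88.9 and 93.2 CPM in control and 50.9, 72.3 and 63.4 CPM in optimized cultures. All optimized values were lower, that of replicate 1 the most, and the log2 fold change was -0.53 ± 0.12 (SE) with an adjusted p of 0.0086 in edgeR's quasi-likelihood test. Slc25a11, which exchanges oxoglutarate for malate in the malate-aspartate shuttle, was at 104, 108 and 118 CPM against 77.3, 102 and 99.2 CPM. It had a log2 fold change of -0.24 (-0.50 to 0.01) and was not called. Slc25a11 passed under 6 alternatives, among them scaling by library totals alone and the fits on FPKM, which all lack TMM factors. The ratio of Slc25a10 to Slc25a11 was lower in every optimized culture, at 0.347, 0.375 and 0.337 against 0.442, 0.434 and 0.417 (0.818-fold, exact permutation p of 0.1).

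The aspartate/glutamate exchangers Slc25a12 and Slc25a13 form the other arm of the malate-aspartate shuttle. Slc25a12, the form of brain and muscle, was at 38.4, 36.7 and 40.6 CPM in control and 31.96, 32.3 and 30.7 CPM in optimized cultures. The change was small but did not overlap, with a log2 fold change of -0.29 ± 0.09 (SE) and an adjusted p of 0.032 in edgeR's quasi-likelihood test. That call was lost without any one of the 3 control libraries or without optimized replicate 3 (adjusted p of 0.058 to 0.14 in the same test). Slc25a13, the form of liver, was at 15.5, 15.6 and 16.7 CPM against 17.9, 17.8 and 17.5 CPM, higher in every optimized culture but not called (0.16, -0.06 to 0.37). The ratio of Slc25a12 to Slc25a13 had tight groups, with 1.37, 1.30 and 1.34 in control and 0.981, 1.00 and 0.966 in optimized cultures (0.736-fold, exact permutation p of 0.1).

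Slc25a1, which exports citrate for cytosolic acetyl-CoA, was at 76.7, 82.8 and 100.7 CPM in control and 68.6, 99.7 and 91.7 CPM in optimized cultures. The groups overlapped, with a log2 fold change of 0.00 (-0.33 to 0.33). Slc25a35, whose substrate is not settled, was at 1.57 to 2.12 and 1.85 to 2.81 CPM and was not called. Slc25a21, the oxoadipate carrier, and Slc25a34, a relative of Slc25a35, had at most 3 and 13 counts in a library and were not tested.

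Among the carriers of amino acids and acylcarnitine, Slc25a45 had the lowest adjusted p of the carriers that fell. Slc25a45, which has been linked to methylated amino acids, was at 85.5, 85.2 and 80.9 CPM in control and 44.8, 47.9 and 44.4 CPM in optimized cultures. Both groups were tight, and the log2 fold change was -0.88 ± 0.08 (SE), a fall to 0.545 of the control level with an adjusted p of 2.5e-05 in edgeR's quasi-likelihood test. Slc25a38, which brings glycine into the matrix for the first step of haem synthesis, was at 22.8, 22.7 and 22.5 CPM in control and 12.2, 14.0 and 16.2 CPM in optimized cultures. The 3 control values were nearly equal and all optimized values were lower, with a log2 fold change of -0.68 ± 0.12 (SE) and an adjusted p of 0.0015 in edgeR's quasi-likelihood test. The glycine carrier for haem synthesis and the iron carrier Slc25a37 thus changed in opposite directions in the same cultures.

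Slc25a15, the ornithine carrier of the urea cycle, was at 6.43, 7.10 and 5.34 CPM against 8.90, 8.47 and 7.98 CPM. It was higher in every optimized culture, with a log2 fold change of 0.43 (0.10 to 0.76) and an adjusted p of 0.053 in edgeR's quasi-likelihood test, just short of the threshold. Slc25a20, the carnitine/acylcarnitine carrier of fatty acid oxidation, was also higher in each, at 20.7 to 26.9 against 18.1 to 20.5 CPM, but not called (0.30, 0.03 to 0.56). With single libraries left out its adjusted p was 0.0078 to 0.27 in edgeR's quasi-likelihood test, and only the fit without optimized replicate 1 called it. In that fit 35.1% of all genes were called, beside 29.8% with all libraries. Slc25a44, the carrier of branched-chain amino acids, had a log2 fold change of -0.02 (-0.25 to 0.20), and Slc25a47, known from liver, was at 0.366 to 0.937 CPM in all libraries. The untested carriers of this group were Slc25a2, an ornithine carrier, with 0 to 7 counts per library, Slc25a29, which carries basic amino acids, with 5 to 9, and Slc25a48, linked to choline, with 5 in control replicate 1, 13 in optimized replicate 1 and 0 in the other 4 libraries.

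Carriers of nucleotides and cofactors supply mitochondrial RNA and DNA synthesis and the enzymes of the matrix. Slc25a33, an importer of pyrimidine nucleotides, was at 5.12, 5.63 and 5.01 CPM in control and 7.95, 8.00 and 7.01 CPM in optimized cultures. The groups were apart, with a log2 fold change of 0.54 ± 0.14 (SE) and an adjusted p of 0.014 in edgeR's quasi-likelihood test, but the call was lost without control replicate 1 (0.058), without control replicate 3 (0.067) and with library size alone (0.063, adjusted p of the same test). The call was also lost in the fits on log2(FPKM + 1) and log2(FPKM + 0.1) without a minimum of the mean FPKM. Slc25a36, the second pyrimidine carrier, did not differ detectably, at 57.8, 62.7 and 50.5 against 64.9, 51.5 and 49.6 CPM (-0.04, -0.32 to 0.24). The ratio of Slc25a33 to Slc25a36 was 0.287 to 0.322 in control and 0.397 to 0.504 in optimized cultures (1.51-fold, exact permutation p of 0.1).

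The NAD carrier Slc25a51 varied little, at 66.5, 67.2 and 67.9 CPM in control and 64.7, 66.2 and 67.2 CPM in optimized cultures, with an interval of -0.19 to 0.14. The following cofactor carriers were not called: Slc25a32 for folate and flavin (0.08, -0.21 to 0.36), Slc25a26 for S-adenosylmethionine (-0.07, -0.45 to 0.32), Slc25a42 for coenzyme A (0.51, -0.06 to 1.07), its relative Slc25a16 (0.16, -0.05 to 0.38) and the peroxisomal Slc25a17 (-0.08, -0.32 to 0.16). Of the 75-base stretches of Slc25a26, 43.2% also occur in Lrig1 on the opposite strand, so its level is uncertain to that extent.

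The last 3 members have an outer membrane location or no settled substrate, and none was called. Slc25a46, an outer membrane protein of mitochondrial fusion and lipid supply, was at 36.9, 38.1 and 39.4 CPM against 34.0, 33.8 and 32.9 CPM. It was lower in every optimized culture, with a log2 fold change of -0.18 (-0.37 to 0.00) and an adjusted p of 0.13 in edgeR's quasi-likelihood test. Slc25a43 had a log2 fold change of -0.24 (-0.64 to 0.16) and Slc25a53 of 0.41 (-0.42 to 1.23).

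**Figure D4:**
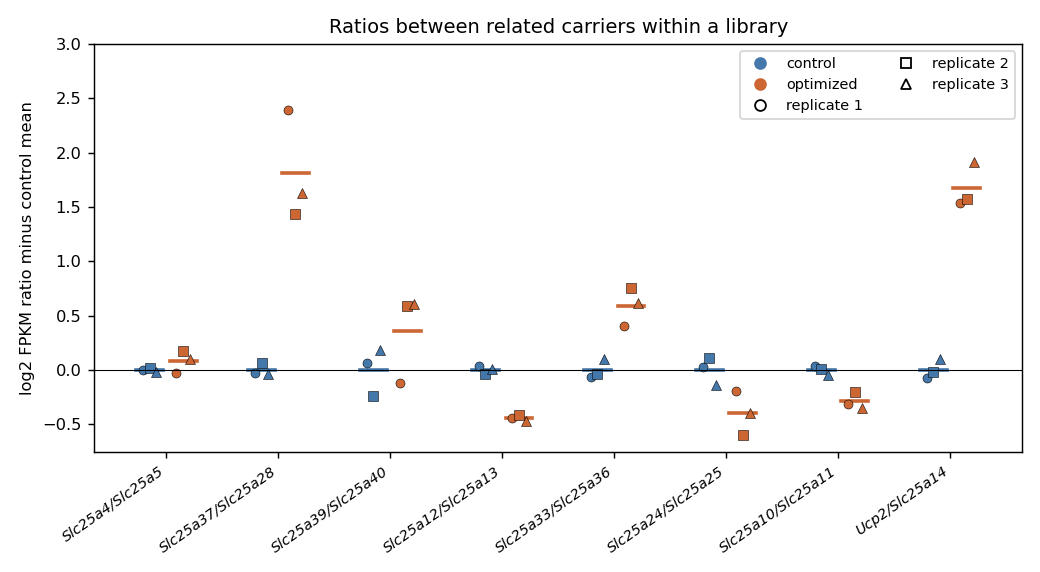
Log2 of the FPKM ratio between 8 pairs of related carriers within each library, minus the control mean of that pair, for the 3 control (blue) and 3 optimized (orange) libraries, with lines for the group means. The Slc25a37/Slc25a28 and Ucp2/Slc25a14 ratios stand highest in optimized libraries, the Slc25a12/Slc25a13 groups are tight and apart, and Slc25a4/Slc25a5 and Slc25a39/Slc25a40 overlap.

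All optimized values lay above all control values for 9 of the 40 tested carriers and below them for 11. Over all genes, 21.4% and 22.5% were separated in this way, so these counts are near the background as well. Ucp2 and Slc25a14, both of the uncoupling group, had an FPKM ratio of 129, 135 and 147 in control and 397, 408 and 515 in optimized cultures (3.20-fold). Of the 8 ratios, 6 did not overlap, each with an exact permutation p of 0.1 and 0.13 after adjustment over the pairs. A design of 3 against 3 cannot go below that p, so none of the ratios could pass a threshold of 0.05.

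Partners of the carriers were read from lists of enzymes and transporters, by counts and medians. Of 18 tested transporters and carrier relatives outside the Slc25 symbols, 4 were higher and 4 lower, with a median log2 fold change of -0.13. The highest of those called was Mtch1, a relative of the carriers in the outer membrane, at 0.90 ± 0.11, followed by Mpc1, a subunit of the pyruvate carrier, at 0.79 ± 0.11, and the lowest was Mcub, an inhibitory subunit of the calcium uniporter, at -1.01 ± 0.13 (SE). Of 17 channels and import factors, through which carriers reach the inner membrane, 0 were higher and 1, Vdac3, was lower. Of 13 tested genes of mitochondrial biogenesis 1 was higher, the DNA polymerase Polg, and 0 were lower. Of 13 mitochondrially encoded genes 4 were higher and 0 lower, with a median of 0.34, all 4 being subunits of complex I (ND4, ND4L, ND5 and ND6). All of these counts stand beside 14.7% of all genes higher and 15.2% lower.

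Enzymes that use what the carriers transport were read in the same way, beside 14.7% of all genes higher and 15.2% lower. Of 9 one-carbon enzymes, 0 were higher and 5 lower, with a median of -0.46 on the log2 scale and Mthfd2, the mitochondrial methylene-folate enzyme, lowest at -1.08 ± 0.13 (SE), while the folate carrier Slc25a32 was not called. Of 11 genes of citrate export and acetyl-CoA, 1 was higher and 5 lower. Acss2, which makes acetyl-CoA from acetate, was lowest at -1.20 ± 0.13 and Acaca, which commits it to fatty acids, was higher at 0.63 ± 0.13, beside a citrate carrier at 0.00. The others called lower were Idh1 at -0.51 ± 0.09, Aco1 at -0.47 ± 0.08, Fasn at -0.47 ± 0.15 and Acly at -0.36 ± 0.09. Of 11 carnitine shuttle genes, 2 were higher and 0 lower, 18.2% called beside 29.8% of all genes: Cpt1a, the outer gate of fatty acid oxidation, at 0.90 ± 0.08 and Acadl at 0.41 ± 0.08.

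Of 15 tested enzymes of glutamate, ornithine and glycine, 4 were higher and 1 lower, 33.3% called beside 29.8% of all genes. Glud1, which oxidises the glutamate that Slc25a22 imports, was the lower one at -0.50 ± 0.08 (SE). Arg1, which forms ornithine, was highest at 2.89 ± 0.53, but from 0.109 to 0.835 CPM on average, with few reads behind it. Of 14 genes of glutathione and mitochondrial redox, 1 was higher and 5 lower, or 42.9%. Sod2, which clears superoxide in the matrix, was lowest at -1.57 ± 0.11, and Gpx1, which reduces peroxide with glutathione, was highest at 1.30 ± 0.16, beside Slc25a39 at 0.40. Other glutathione genes of the list went the other way, with Gsr at -1.34 ± 0.09, Gclm at -0.55 ± 0.09 and Gss at -0.50 ± 0.12, all called lower. Gclc and Gpx4 were not called. Of 22 tested genes of iron, haem and iron-sulfur clusters, 3 were higher and 1 lower, or 18.2%, a share below that of all genes. Among those called, Isca1 was highest at 0.57 ± 0.10 and Hspa9 was lowest at -0.40 ± 0.08. The ferrochelatase Fech, which joins iron delivered by mitoferrin to the haem ring, was higher by 0.29 ± 0.08.

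For the remaining lists, 1 of 15 tested partners of the ATP synthase was higher and 3 were lower, 26.7% called beside 29.8% of all genes. Among those called, Ak4, a matrix nucleotide kinase, was highest at 1.34 ± 0.14 (SE) and Ppif lowest at -0.49 ± 0.14. Of 7 shuttle enzymes, Got2, which works with Slc25a12 and Slc25a13, was higher at 0.36 ± 0.09 and Gpd2 lower at -0.55 ± 0.13. Of 16 cofactor enzymes, 2 were higher and 2 lower, from Nadk at -0.84 ± 0.08 to Ppcdc, an enzyme of coenzyme A synthesis, at 2.12 ± 0.09.

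**Figure D5:**
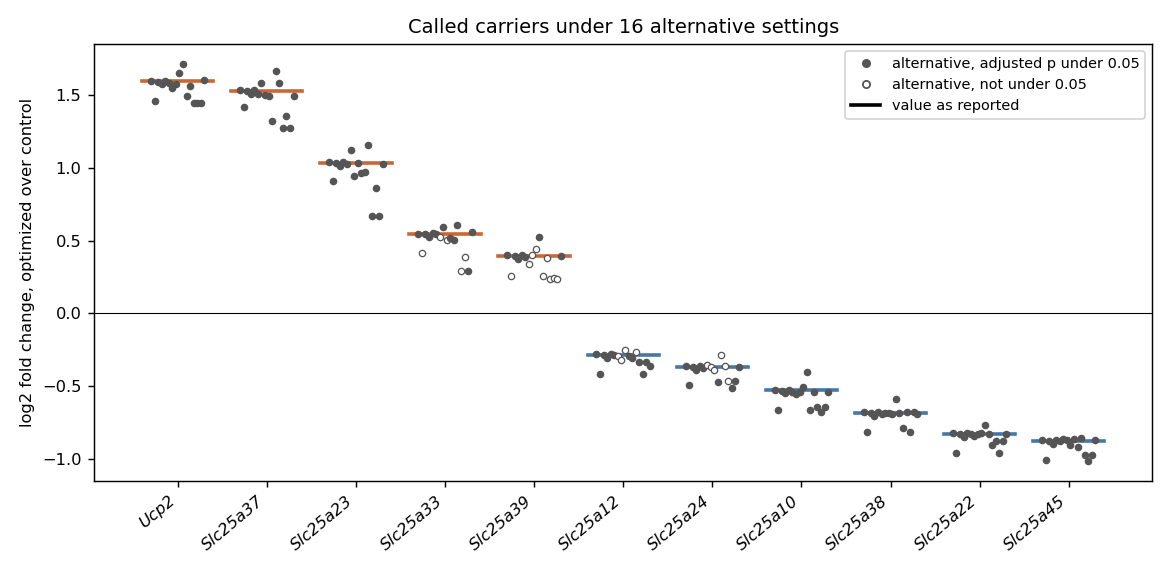
Log2 fold change of the called carriers described here, as reported (coloured lines) and under 16 alternative settings (points, filled where the adjusted p was under 0.05). Ucp2, Slc25a37, Slc25a23, Slc25a10, Slc25a38, Slc25a22 and Slc25a45 have filled points throughout, and all points of a carrier lie on 1 side of 0.

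Across the alternatives, the 12 called carriers kept their sign in all 16 settings. The calls of Ucp2, Slc25a37, Slc25a23, Slc25a45, Slc25a22, Slc25a38 and Slc25a10 also held in all 16, and those of Slc25a12, Slc25a33, Slc25a24 and Slc25a39 held in 12, 11, 10 and 7.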

How the data were processed

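Per the labels and the paper's methods, the authors aligned read pairs with HISAT2 (build mm39) and obtained gene counts by featureCounts; versions, annotation and strand setting are not given in the sources used here. The authors deposited raw counts per gene and FPKM values for 41079 genes in 6 libraries. Dividing counts by these FPKM values gave 1 factor per gene times 1 factor per library.

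Counts were compared in R 4.3.3 with edgeR 4.0.16 (filterByExpr, TMM factors, quasi-likelihood test, Benjamini-Hochberg adjustment over 14618 genes, threshold 0.05). CPM values were TMM-scaled. Standard errors derive from the F statistic and 95% intervals use the t distribution with the degrees of freedom of that test, so that they cover 0 where its unadjusted p is above 0.05. Ratios and shares used exact two-sided permutation tests over samples. The libraries are labelled as replicates, and p-values measure the spread between them. The common dispersion was 0.016. No 2 libraries agreed within sampling noise.

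Carriers and lists were chosen with earlier results of these data known. Any carrier could be named, except that 1 called carrier, which stays in all counts, is not reported here by name. All 6 values were given for the other called carriers with a mean of at least 5 CPM and the 5 with the highest mean FPKM, and those of other carriers were added after their values were seen. From the lists, the lowest and highest called genes and partners of a carrier were named.

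Alternatives were library size alone, relative log expression factors, a DESeq2 1.42.0 fit, all genes kept regardless of counts, a minimum of 10 counts in each library, a block for the replicate number, each library left out, and limma 3.58.1 with pseudocounts of 1 and 0.1 on FPKM and, with the former, only where the mean FPKM was 1 or more. Such limma fold changes refer to log2(FPKM + pseudocount) and come out too small for low genes. Removal of a length trend (natural spline, 4 degrees of freedom) was added after the data were seen. Fits by edgeR, DESeq2 and limma were run on simulated counts with the same dispersion of 0.016 for every gene and no length trend. The permutation tests and the removal of the length trend were not simulated.

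Coordinates, exon overlaps and shared 75-base stretches are from GENCODE M39 on GRCm39, in which 35087 of the 41079 symbols were found. Promoters were the 250 bases before the start of the canonical transcript.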

Additional observations from a re-analysis of the deposited data

How the results depend on the processing

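The counts of called carriers, 5 higher and 7 lower, were the same with relative log expression factors, DESeq2, no filter and at least 10 counts in every library. They were 3 and 12 when scaled by totals alone (library size alone), 3 and 11 in limma fits on log2(FPKM + 1) and on log2(FPKM + 0.1), 4 and 12 with limma at a mean FPKM of at least 1, and 7 and 9 with the length trend removed. By share, 30% of the carriers were called with relative log expression factors and with at least 10 counts, beside 29.9% and 30.3% of all genes. With library size alone, 37.5% of the carriers and 32% of all genes were called. On log2(FPKM + 1), limma called 30.4% of 46 carriers and 16.4% of all genes, and on log2(FPKM + 0.1) 30.4% and 16.5%. With the mean FPKM minimum it called 45.7% of 35 carriers and 35.8% of all genes. With DESeq2 and with no filter, 26.1% of 46 carriers were called, beside 18.1% and 19.2% of all genes. From library size alone onwards in this list, the share was higher among the carriers, a difference that was not tested. The fits with 46 carriers covered 24032 genes, among them genes that the main fit left out for low counts. With the length trend removed, 40% of the carriers and 35.7% of all genes were called. With single libraries left out the counts of called carriers were 3 to 6 higher and 4 to 7 lower. By share this was 17.5% to 32.5% of the carriers, beside 21.8% to 35.1% of all genes. The lowest counts were without control replicate 1 or 3 (3 higher) and, for the falls, without control replicate 2 or 3 or optimized replicate 3 (4 lower). The cause of these shifts was not tested. The median log2 fold change of the carriers, -0.02, was -0.15 under library size alone and -0.14, -0.16 and -0.15 with the 3 limma fits in the same order. The median of all genes was -0.12 under library size alone and -0.01, -0.05 and -0.13 with these limma fits. Over all genes, 2142 were higher and 2218 lower, and 1513 and 3168 with library size alone. The limma fits called 1307, 1312 and 1176 genes higher and 2638, 2664 and 2962 lower.

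Same-numbered libraries deviated from their group means with correlations of 0.58, -0.08 and 0.37 over 9371 genes. Control replicate 1 and optimized replicate 1 shared a deviation towards long transcripts (Spearman correlation of 0.51 and 0.69). The check therefore cannot decide whether the numbers pair the libraries. With the replicate number as a block, 8 carriers were higher and 9 lower (42.5%), and 2401 and 2523 genes overall (33.7%). Control replicate 3 correlated better with optimized replicate 2 (0.57) than with its own number.

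No carrier that was called changed sign under any alternative. Of the carriers that were not called, Slc25a5 passed in 7 of 16 alternatives, Slc25a11 in 6, Slc25a28 and Slc25a46 in 4, Slc25a3 and Slc25a20 in 3, and Slc25a15 and Slc25a30 in 2. Those of Slc25a28, Slc25a46 and Slc25a3 were all with library size alone or with limma on FPKM. These settings share the lack of TMM factors, so they do not count as separate support. Slc25a5 and Slc25a11 also passed in all of these settings. Their other passes were with the replicate block, with the length trend removed and, for Slc25a5, without optimized replicate 2. Depth limits the 8 carriers that were not tested and those near 1 CPM, and permutation tests of 3 against 3 cannot go below 0.1.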
